A study of Mus musculus with 6 samples.

Results

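The genes described here encode the nuclear pore complex and the soluble receptors that carry proteins and RNAs through it, 49 of the 21887 protein-coding genes in the mouse annotation used. They were taken from a fixed list that leaves out the NUP214 subcomplex itself and the mRNA export factors. The list holds 27 pore genes and 22 transport receptor genes, and all 49 were found in the RefSeq table of GRCm38.p6, the build also called mm10. For each gene, NUP214 peaks were recorded within 1 kb of either outermost gene end (gene-end peaks) and anywhere between the ends (the span).

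NUP214 was mapped on chromatin of sorted mouse bone marrow cells by CUT&Tag, in which an antibody tethers a transposase that cuts and tags the DNA beside its target. Leukemia stem cells (LSCs), gated as Lin- and Sca-1- and positive for c-Kit, CD16/32 and CD34, came from mice with acute myeloid leukemia driven by the MLL-AF9 fusion oncogene. Nup214-HET LSCs were Nup214fl/+,Tie2-Cre, and control LSCs were Nup214fl/+ without the recombinase. Hematopoietic stem cells (HSCs), gated as CD48-CD150+LSK, came from Nup214fl/+ mice. The floxed allele is thus shared by all 3 groups, and Tie2-Cre is active in blood and endothelial cells at large. Each group had 2 libraries. The labels do not tie libraries to animals, so every p-value measures the spread between these 6 libraries only, part or all of which may be technical. No library is labelled as lacking the NUP214 antibody. The labels' cell type entry is the same stem cell term for all 6 libraries, and the groups follow the sample titles.

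The nuclear pore complex is built from nucleoporins: an outer ring and an inner ring form its scaffold, membrane nucleoporins anchor it in the envelope, channel nucleoporins fill the passage, and a basket reaches into the nucleus. Cargo crosses with receptors of the karyopherin family. Importin alpha binds nuclear localization signals and hands cargo to importin beta, other importins bind cargo directly, and exportins work in the opposite direction. Some nucleoporins are also known to contact chromatin. NUP214 sits on the cytoplasmic face of the pore. Its peaks at the genes described here are positions of the antibody signal and do not measure the genes' expression.

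Nup98, Tpr, Nup107 and Kpnb1 are shown by sequence because NUP214 peaks overlapped the 250 bases before their annotated starts in all 4 LSC libraries. They are the 3 pore genes and the single receptor gene with the highest mean fold percentile among members with such peaks and an annotated start. The sequences are RefSeq's on GRCm38.p6, are written 5′ to 3′ on each gene's own strand, and end at the base before the start. The windows are chr7:102210167-102210416 (minus strand), chr1:150392588-150392837 (plus strand), chr10:117792706-117792955 (minus strand) and chr11:97187893-97188142 (minus strand). Capitals mark matches on either strand to the GC box GGGCGG, the NF-Y box CCAAT, the ETS motif CCGGAAG and the palindromic NRF1 motif.
Nup98 promoter: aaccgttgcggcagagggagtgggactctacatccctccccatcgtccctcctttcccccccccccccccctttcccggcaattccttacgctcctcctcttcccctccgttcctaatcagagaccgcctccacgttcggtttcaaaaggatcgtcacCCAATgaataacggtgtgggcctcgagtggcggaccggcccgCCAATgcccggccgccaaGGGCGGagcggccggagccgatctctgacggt
Tpr promoter: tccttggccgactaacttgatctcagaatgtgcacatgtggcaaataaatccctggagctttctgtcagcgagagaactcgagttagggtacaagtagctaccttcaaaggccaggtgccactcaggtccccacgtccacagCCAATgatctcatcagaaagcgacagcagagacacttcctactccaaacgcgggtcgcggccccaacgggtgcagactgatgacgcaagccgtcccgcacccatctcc
Nup107 promoter: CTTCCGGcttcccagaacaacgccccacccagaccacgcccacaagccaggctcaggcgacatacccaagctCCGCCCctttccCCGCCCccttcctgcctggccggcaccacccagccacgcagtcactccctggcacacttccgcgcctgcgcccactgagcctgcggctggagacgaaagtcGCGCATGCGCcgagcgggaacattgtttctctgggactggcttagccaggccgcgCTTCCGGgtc
Kpnb1 promoter: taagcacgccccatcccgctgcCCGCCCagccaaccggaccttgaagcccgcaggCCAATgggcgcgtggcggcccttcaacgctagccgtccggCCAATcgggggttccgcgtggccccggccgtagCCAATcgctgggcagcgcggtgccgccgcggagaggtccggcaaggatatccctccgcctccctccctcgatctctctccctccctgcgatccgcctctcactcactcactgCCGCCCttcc
The Nup98 window was covered by peaks over 250 and 222 bases in Nup214-HET LSC libraries 1 and 2, over all 250 in both control LSC libraries, and over 172 bases in HSC library 1. At Nup107 the cover was 250 and 232 bases in Nup214-HET LSCs and 250 and 249 in control LSCs. At Kpnb1 it was 141 and 181 bases in Nup214-HET LSCs against 246 and 211 in control LSCs. At Tpr it was 74 and 82 bases in Nup214-HET LSCs, 125 and 78 in control LSCs, and 40 in HSC library 1, because the Tpr peaks lay mainly downstream of the start. Peak widths differed between the lists, and their part in the cover was not tested.

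NUP214 gene-end peaks were found at more of these genes in control LSCs than in Nup214-HET LSCs, and at almost none in HSCs. The 49 genes carried them in 10 and 9 cases in Nup214-HET LSC libraries 1 and 2, in 40 and 24 cases in control LSC libraries 1 and 2, and in 2 and 0 cases in the HSC libraries. Over all protein-coding genes the percentages were 11.5 and 9.49 in Nup214-HET LSCs, 43.3 and 21.9 in control LSCs, with 1.04 and 0.0868 in HSCs. The members' mean share was 19.4% ± 1.44 in Nup214-HET LSCs, 65.3% ± 23.1 in control LSCs and 2.04% ± 2.89 in HSCs (SD, n = 2 each). The share was 1.77 and 1.94 times that of all genes in the Nup214-HET libraries, 1.88 and 2.23 times in the control LSC libraries, and 3.94 times in HSC library 1. Since earlier results on nucleoporin genes were known when the list was drawn up, the excess over all genes is a description and was not tested.

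Between the LSC groups the number of members with a gene-end peak was 9.5 ± 0.707 in Nup214-HET LSCs and 32 ± 11.3 in control LSCs, a difference of −22.5. Both Nup214-HET libraries lay below both control libraries. The exact permutation test over libraries (two-sided, 2 against 2) gave p = 0.33, the smallest value this design allows. The ratio of the means was 0.297 for the members and 0.322 for all protein-coding genes. With lists cut to the 634 strongest peaks each, the members numbered 3 and 3 in Nup214-HET LSCs, against 4 and 1 in control LSCs, and the difference became 0.5 (exact permutation p = 1). This cut makes all lists equally long, so it cannot show whether the excess in control LSCs holds. The share of all genes at this cut was not counted. Control LSCs exceeded HSCs by 31 members (1 ± 1.41 in HSCs, SD, n = 2), with the groups apart and p = 0.33 by the same exact test. Nup214-HET LSCs exceeded HSCs by 8.5 members, again with the groups apart and an exact permutation p of 0.33. With lists cut to equal length, control LSCs exceeded HSCs by 2.5 members and Nup214-HET LSCs exceeded them by 3. In bulk libraries of this kind, fewer cells with signal and less signal per cell cannot be told apart.

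The lists differed in length, depth and peak width. They held 5452 and 4681 peaks in Nup214-HET LSCs, 25437 and 10525 in control LSCs, with 1045 and 634 in HSCs. The depth implied by the authors' fold and −log10 p columns, relative to control LSC library 2, was 1.77 and 1.72 in Nup214-HET LSCs, 3.72 in control LSC library 1, and 4.90 and 1.95 in HSCs. The shallowest of the 6 by this measure, control LSC library 2, held 24 members, more than the 10 and 9 of the Nup214-HET libraries and the 2 and 0 of the HSC libraries. The median peak width was 435 and 454 bp in Nup214-HET LSCs, 274 and 212 bp in control LSCs, and 286 bp in both HSC libraries. The smallest width was 320 and 329 bp in Nup214-HET LSCs, 145 and 143 bp in control LSCs, and 205 and 229 bp in HSCs. The parts of depth and width in the differences between groups, and in that between control LSC libraries 1 and 2, were not tested. Markers of HSC identity (Mecom, Hlf, Procr, Slamf1, Fgd5, Mllt3) had gene-end peaks in 0 of 6 cases in every library, and of the MLL-AF9 targets Meis1 had them in Nup214-HET LSC library 1 and control LSC library 1. Of the granulocyte-monocyte list Mpo was found in both control LSC libraries, and of the megakaryocyte and endothelial lists Itga2b and Kdr. Control LSC library 1 also had Ctsg, Pf4, Gp9, the erythroid Epor, the B cell Ebf1 and the T cell Cd3e. The HSC libraries had 0 of all these lists, and Meis1 was the single marker called in Nup214-HET LSCs. Each list holds 3 to 6 genes. Over all protein-coding genes the share was 1.04% for HSC library 1 and 0.0868% for HSC library 2, so 0 is near the background there. Nup214-HET LSC libraries 1 and 2 had shares of 11.5% and 9.49%. For control LSC library 1 the share was 43.3%. Its megakaryocyte list had 3 of 3 genes, and its other marker lists at most 40%. Control LSC library 2 had a share of 21.9%. Departures of the lists from these shares were not tested. A peak does not measure expression, so the sorted identities were not checked by these counts.

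**Figure D1:**
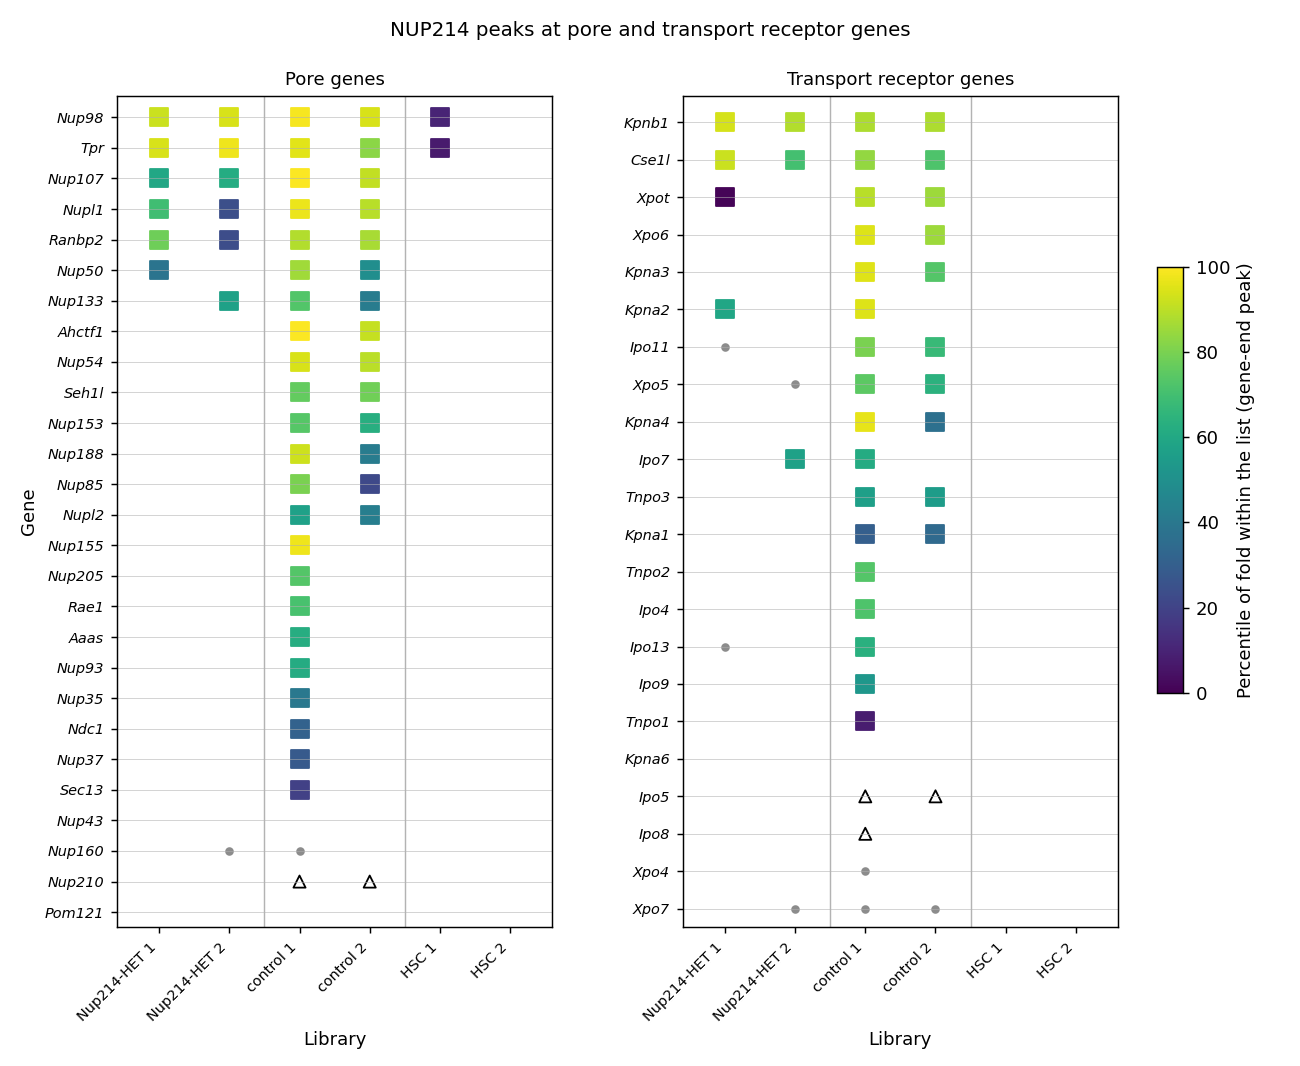
NUP214 peaks at each pore gene (left) and transport receptor gene (right) in the 6 libraries. Squares mark a gene-end peak, coloured by the percentile of its fold enrichment within its own list. Triangles mark a peak only at an annotated start more than 1 kb inside the gene, and grey dots a peak only elsewhere in the span. The control LSC columns are filled for 40 and 24 genes, the Nup214-HET columns for 10 and 9, and the HSC columns for 2 and 0.

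Pore and receptor genes followed the same order of groups. Of the 27 pore genes, 6 and 6 were marked in Nup214-HET LSCs, 23 and 14 in control LSCs, with 2 and 0 in HSCs. Of the 22 receptor genes, 4 and 3 had one in Nup214-HET LSCs, 17 and 10 in control LSCs, with 0 and 0 in HSCs. In control LSC library 1 the shares were 85.2% (Wilson 95% interval 67.5 to 94.1) of pore genes and 77.3% (56.6 to 89.9) of receptor genes. In Nup214-HET LSC library 1 they were 22.2% (10.6 to 40.8) of pore genes and 18.2% (7.31 to 38.5) of receptor genes. These intervals overlap within each library and cover counting error only. The ratio of Nup214-HET to control LSC means was 0.324 for pore genes and 0.259 for receptor genes, against 0.322 for all genes.

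**Figure D2:**
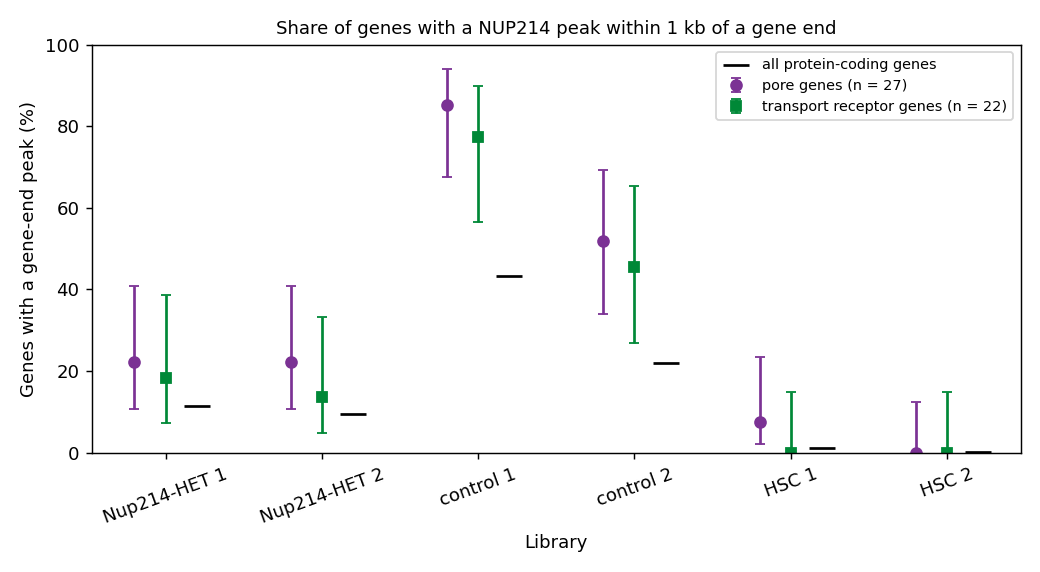
Percentage of pore genes (circles, n = 27) and transport receptor genes (squares, n = 22) with a NUP214 gene-end peak in each library, with Wilson 95% intervals, beside the percentage of all protein-coding genes (dashes). Both classes lie above the dash in every LSC library, from 13.6% to 85.2%, and the receptor genes are at 0 in both HSC libraries.

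A gene was placed in a group's set when both libraries of the group had a gene-end peak. The Nup214-HET set held 7 of the 49 genes, beside 6.76% of all genes, and the control LSC set held 24, beside 21.3%. All 7 genes of the Nup214-HET set were in the control LSC set, so 14.3% of the 49 members were in both, beside 5.82% of all genes. No member of the Nup214-HET set was without a control LSC peak, beside 0.0777% of all genes. The HSC set held 0 members, beside 0.0411% of all genes. Of the 49 members, 22 (44.9%) were in the control LSC set with no peak in HSCs, beside 20.3% of all genes. The control LSC set held 14 of 27 pore genes and 10 of 22 receptor genes, a difference of 6.40 percentage points. The Nup214-HET set held 5 of 27 and 2 of 22, a difference of 9.43 points that turned to −0.84 with lists cut to equal length. The 24 members of control LSC library 2 were all called in library 1 as well, where 97.0% of all genes of library 2 were. All 12 members called in either Nup214-HET library were called in control LSC library 1, where 95.2% of all such genes were, and 10 of them in library 2. None of the 93 gene-end peaks at members overlapped the 109 regions called in all 6 libraries. Such a region needs a peak of HSC library 2, which had 0 gene-end peaks at members. This outcome was therefore nearly fixed in advance.

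The genes of the 2 LSC sets came from several places in the pore. The counts for each class are small and stand beside 21.3% of all genes in the control LSC set and 6.76% in the Nup214-HET set. The outer ring gave Nup107, Nup133, Nup85, Seh1l and Ahctf1, or 5 of 9, to the control LSC set. Ahctf1 encodes ELYS, which brings the outer ring complex to chromatin after mitosis. The inner ring gave Nup188 alone of 5, which is near the share of all genes. The membrane nucleoporins (Nup210, Pom121, Ndc1) gave 0 of 3, although both control LSC libraries had a peak at the Nup210 start, which lies more than 1 kb inside the gene. Both channel genes (Nup54, and Nupl1, which encodes NUP58) and all 3 basket genes (Nup153, Nup50 and Tpr) were in it. Of the 5 genes for nucleoporins of the cytoplasmic face or of both faces, Nup98, Nupl2 and Ranbp2 were. Nup98 encodes a mobile nucleoporin whose gene is rearranged in human leukemias, and Ranbp2 a giant nucleoporin of the cytoplasmic filaments. The Nup214-HET set drew 1 gene from the outer ring (Nup107), 1 from the channel (Nupl1), 1 from the basket (Tpr) and 2 from the faces (Nup98 and Ranbp2).

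Among the receptors, the control LSC set held 3 of 5 importin alpha genes (Kpna1, Kpna3, Kpna4) and 3 of 11 of the importin beta family, or 27.3%, near the 21.3% of all genes. The beta family genes were Kpnb1 (importin beta itself), Tnpo3 (a receptor for serine/arginine-rich splicing factors) and Ipo11. It also held 4 of 6 exportins: Cse1l, which returns importin alpha to the cytoplasm, Xpo5, which exports microRNA precursors, Xpo6, which exports actin, and Xpot, which exports tRNA. Kpnb1 and Cse1l were the 2 receptor genes of the Nup214-HET set, 9.09% of the 22 and near the 6.76% of all genes. As background, importin beta and the exportin of importin alpha serve the same classical import cycle. None of the 5 importin alpha genes had a gene-end peak in both Nup214-HET libraries, beside 6.76% of all genes. Kpna2 had one in Nup214-HET library 1 and in control LSC library 1.

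Nup98 (gene ID 269966, chromosome 7, 102119400 to 102210166, minus strand) had the strongest rank of the members over the LSC libraries and a peak in 5 of the 6 lists. The authors' fold enrichment was 8.33 and 8.53 in Nup214-HET LSCs, 17.3 and 11.3 in control LSCs, and 4.25 in HSC library 1. Folds are comparable only among peaks of the same list, and these stood at the percentiles 91.9 and 94.0 in Nup214-HET LSCs, 98.7 and 93.8 in control LSCs, and 9.95 in HSC library 1. The Nup98 peak was therefore near the top of all 4 LSC lists and near the bottom of the HSC list. Its summits lay within 63 bp of each other in the 5 lists, over a shared interval of 222 bp (chromosome 7, 102210245 to 102210466) within the printed window and just upstream of it.

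Tpr (gene ID 108989, chromosome 1, 150392802 to 150449935, plus strand) encodes the main filament of the nuclear basket, and it was the other member with a peak in HSC library 1. Its folds were 8.83 and 10.0 in Nup214-HET LSCs, 14.5 and 8.53 in control LSCs, and 4.12 in HSC library 1. In percentiles these were 93.8 and 97.5 in Nup214-HET LSCs, 95.6 and 82.6 in control LSCs, and 7.18 in HSC library 1. The 5 Tpr peaks shared 272 bp (chromosome 1, 150392798 to 150393069). The summit pileups in HSC library 1 were 7 fragments at Nup98 and 6 at Tpr, where 6 was the lowest of any peak in that list.

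Nup107 (gene ID 103468, chromosome 10, 117750621 to 117792736, minus strand), an outer ring subunit, had folds at the percentiles 59.6 and 61.4 in Nup214-HET LSCs, against 99.3 and 90.9 in control LSCs. Nupl1 (gene ID 71844, chromosome 14, 60205284 to 60251479, minus strand) stood at 69.4 and 24.1 in Nup214-HET LSCs, against 97.2 and 89.3 in control LSCs. Ranbp2 (gene ID 19386, chromosome 10, 58446852 to 58494155, plus strand) stood at 77.9 and 23.1 in Nup214-HET LSCs, against 88.4 and 86.7 in control LSCs. For each of these 3 genes both Nup214-HET percentiles lay below both control LSC percentiles. Kpnb1 (gene ID 16211, chromosome 11, 97159710 to 97187892, minus strand) stood at 93.7 and 88.3 in Nup214-HET LSCs, against 87.5 and 87.6 in control LSCs. Cse1l (gene ID 110750, chromosome 2, 166906041 to 166946389) stood at 92.0 and 70.2 in Nup214-HET LSCs against 83.8 and 72.0 in control LSCs, and its groups overlapped. These are ranks in lists of different lengths and do not by themselves show a change in signal. Kpnb1 had a further peak in both control LSC libraries, with summits 749 and 678 bp downstream of the start, and none there in the Nup214-HET lists.

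**Figure D3:**
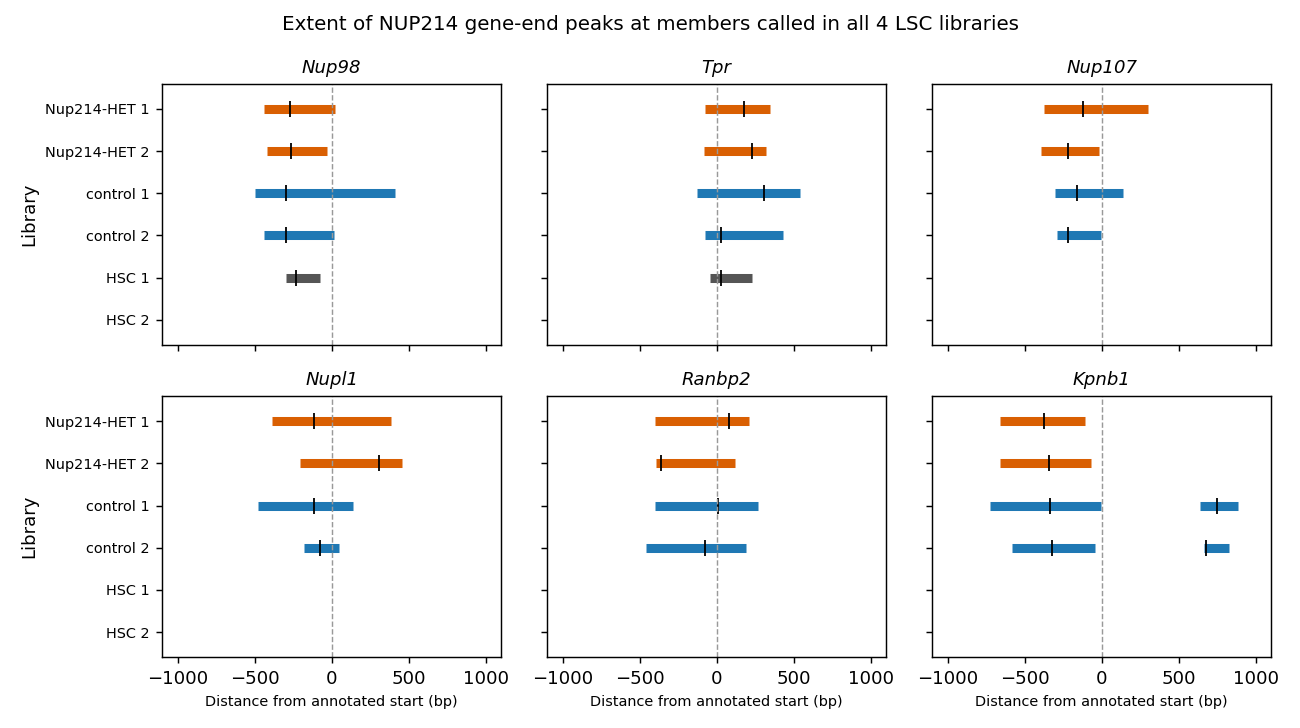
Extent (bars) and summit (ticks) of the gene-end peaks at Nup98, Tpr, Nup107, Nupl1, Ranbp2 and Kpnb1, in bp from the annotated start, with negative distances upstream. Rows are libraries, with Nup214-HET LSCs at the top and HSCs at the bottom. The peaks of each gene overlap across the LSC libraries, and Nup98 and Tpr have a bar in HSC library 1.

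The height of the signal at these 7 genes was compared through the summit pileup, the number of fragments at the peak's highest point, recovered from the authors' fold and −log10 p. It was scaled to the depth implied for control LSC library 2. Nup98 had 15.8 and 17.4 scaled fragments in Nup214-HET LSCs, against 29.3 and 29.0 in control LSCs. Nup107 had 10.2 and 11.04 in Nup214-HET LSCs against 21.8 and 16 in control LSCs, and Nupl1 had 7.34 and 3.49 in Nup214-HET LSCs against 13.2 and 13 in control LSCs. Ranbp2 had 11.3 and 5.81 in Nup214-HET LSCs against 13.7 and 17 in control LSCs, and Tpr had 10.2 and 14.5 in Nup214-HET LSCs against 16.7 and 15 in control LSCs. All 5 pore genes were thus lower in both Nup214-HET libraries than in both control LSC libraries. Kpnb1 had 32.7 and 27.9 scaled fragments in Nup214-HET LSCs, against 29.0 and 26 in control LSCs, and Cse1l had 12.99 and 8.72 in Nup214-HET LSCs against 8.86 and 11 in control LSCs. The groups overlapped for both receptor genes.

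On the log2 scale the ratio of Nup214-HET to control LSC means was −0.81 for Nup98, −0.83 for Nup107, −1.27 for Nupl1, −0.84 for Ranbp2 and −0.36 for Tpr. It was 0.14 for Kpnb1 and 0.13 for Cse1l. Each of the 5 pore genes had an exact permutation p of 0.33 (two-sided, 2 against 2), the smallest possible, and Kpnb1 and Cse1l had exact permutation p-values of 0.67 and 1. The median over the 7 was −0.81, and over the 1273 genes in both LSC sets it was −0.44. Both Nup214-HET libraries lay below both control LSC libraries at 58.8% of those 1273 genes, so 5 of 7 is near the background. A gene enters this comparison only if its peak was called in all 4 LSC libraries, which leaves out the genes whose signal fell below the calling limit.

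The level depends on the scaling, because the smallest peak widths differed between the groups (320 and 329 bp in Nup214-HET LSCs, 145 and 143 bp in control LSCs) and enter the implied depth. Taken over the lowest background of each list instead, the pileup was lower in both Nup214-HET libraries at all 7 genes and at 98.2% of the 1273. Nup98 then had 71.3 and 76.4 times the background in Nup214-HET LSCs, against 291 and 293 in control LSCs. Kpnb1 had 148 and 122 times the background in Nup214-HET LSCs, against 289 and 262 in control LSCs. The log2 ratios became −1.98 for Nup98 and −1.03 for Kpnb1. Each scaling divides all genes of a library by 1 constant, so the choice shifts the level and leaves the order of the genes nearly fixed.

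**Figure D4:**
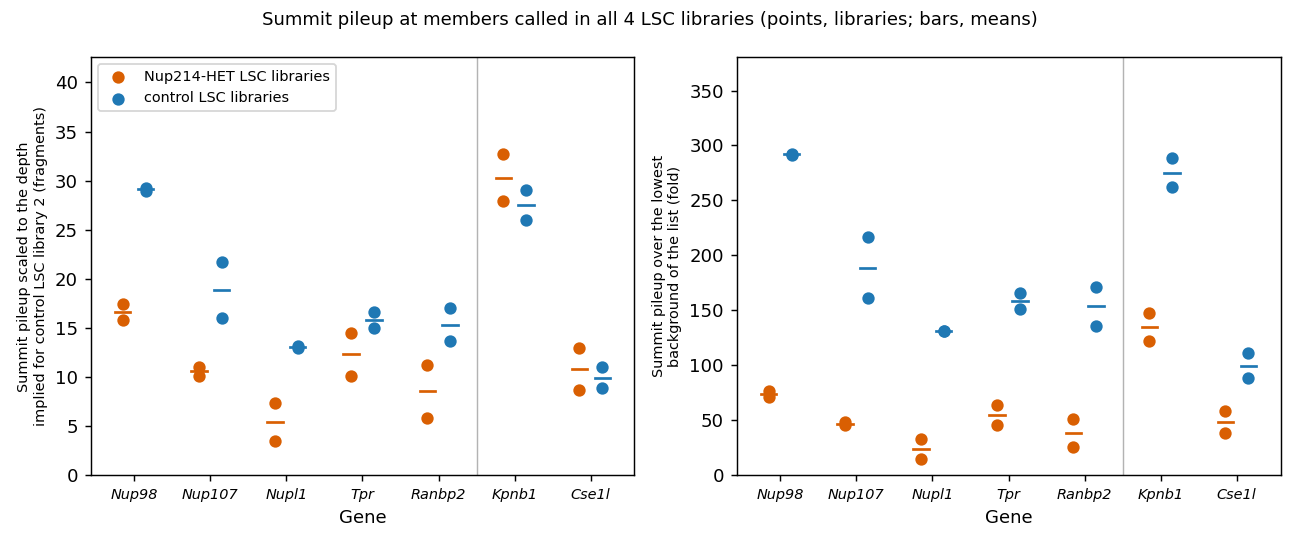
Summit pileup of the gene-end peak at the 7 members called in all 4 LSC libraries, scaled to the depth implied for control LSC library 2 (left) and over the lowest background of the list (right). Points are libraries and bars are means, with Nup214-HET LSCs left of control LSCs for each gene, and the grey line parts pore from receptor genes. On the left the 5 pore genes are lower in Nup214-HET LSCs while Kpnb1 and Cse1l overlap, and on the right all 7 are lower.

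Nup214-HET LSCs had no gene-end peak at 14 of the 24 members of the control LSC set. These are 28.6% of all 49 members, beside 10.8% of all protein-coding genes. Within the control LSC set this was 58.3% of the members and 50.7% of all genes. A single Nup214-HET library had a peak at 3 of the 24, or 12.5%, against 21.9% of all genes in the control LSC set. Out of all 49 members this is 6.12%, and out of all protein-coding genes 4.66%. The 3 were Nup50 and Xpot in library 1 and Nup133 in library 2. The 14 were Nup54, Nup85, Nup153, Nup188, Nupl2, Seh1l and Ahctf1 of the pore, and Kpna1, Kpna3, Kpna4, Tnpo3, Ipo11, Xpo5 and Xpo6 of the receptors. With control LSC library 2 left out they numbered 28, and with lists cut to equal length 0. That cut removes most control LSC peaks, so the 0 does not show that these genes had Nup214-HET peaks.

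Ahctf1 (gene ID 226747, chromosome 1, 179744904 to 179804015, minus strand) had the highest mean percentile of the 14 in control LSCs, 95.4, with folds of 19.3 and 10.5. Its 2 summits lay 2 bp apart, 93 and 91 bp downstream of the start. Nup54 (gene ID 269113, chromosome 5, 92415540 to 92435259, minus strand), a channel nucleoporin, followed with a mean percentile of 91.9 and folds of 13.7 and 9.99. Xpo6 (gene ID 74204, chromosome 7, 126101718 to 126200539, minus strand) had 90.1 with folds of 14.1 and 8.998, and its 2 summits fell on the same base, 29 bp upstream of the start. Kpna3 (gene ID 16648, chromosome 14, 61365186 to 61439947) had 84.3 with folds of 14.3 and 7.47. Seh1l (gene ID 72124, chromosome 18, 67774876 to 67795487), an outer ring subunit shared with a nutrient-sensing complex, had 77.2 with folds of 9.12 and 7.99. In both control lists Ahctf1, the highest of the 14, ranked above Cse1l, the lowest of the 7 called in all 4 LSC libraries. These are the extremes of their groups, so the pair shows only that the ranks of the groups overlapped.

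As a group, the members called in all 4 LSC libraries stood higher in the control lists than those with no Nup214-HET peak. In control LSC library 1 the median percentile was 95.6 (lowest 83.8, highest 99.3) for the 7 called in all 4 LSC libraries. It was 79.9 (29.7 to 99.4) for the 14 with no Nup214-HET peak, and 61.8 (8.15 to 97.5) for the 14 called in control LSC library 1 alone. In control LSC library 2 it was 87.6 (72.0 to 93.8) for the 7 and 63.4 (22.1 to 91.3) for the 14. The ranges overlapped. Over all members with a gene-end peak, the median percentile was 73.7 and 61.4 in Nup214-HET LSCs, 75.3 and 72.7 in control LSCs, and 8.56 in HSC library 1. All gene-end peaks had medians of 67.4 and 65.9 in Nup214-HET LSCs, 70.7 and 68.9 in control LSCs, and 52.5 in HSC library 1.

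The 14 members called in control LSC library 1 alone were Nup35, Nup37, Nup93, Nup155, Nup205, Ndc1, Aaas, Rae1 and Sec13 of the pore, and Tnpo1, Tnpo2, Ipo4, Ipo9 and Ipo13 of the receptors. This pattern was seen at 28.6% of members and 19% of all genes. Of the inner ring, 4 of 5 genes showed it, a count of a small class that was singled out after its values were seen. Kpna2 and Ipo7 had a peak in control LSC library 1 and in a single Nup214-HET library. The 2 Ipo7 peaks shared no base. Any LSC library had a peak at 40 members, beside 44.6% of all genes. The remaining 9, with no gene-end peak in any library beside 55.3% of all genes, were Nup43, Nup160, Nup210, Pom121, Kpna6, Ipo5, Ipo8, Xpo4 and Xpo7.

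Most peaks marked the start side of the gene. Strand and start were known for 39 of the 49 members from the RefSeq promoter table, and 35 of them had the annotated start within 1 kb of the outermost end. At these 35 the start side alone was marked at 9 and 8 genes in Nup214-HET LSCs, at 33 and 19 in control LSCs, and at 2 and 0 in HSCs. The end side alone was marked at 0 genes in all 6 libraries, and both sides at 1, Xpot in control LSC library 1. The end-side summit at Xpot lay outside the gene, and an end of Tbk1 is within 1 kb of that Xpot end. Over 13591 genes the start side was marked in 13.5% and 10.8% of cases in Nup214-HET LSCs, 49.8% and 25.9% in control LSCs, with 1.14% and 0.0589% in HSCs. The end side was marked in 0.876% and 0.78% of cases in Nup214-HET LSCs, 4.57% and 1.74% in control LSCs, and 0.125% and 0.0589% in the HSC libraries.

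**Figure D5:**
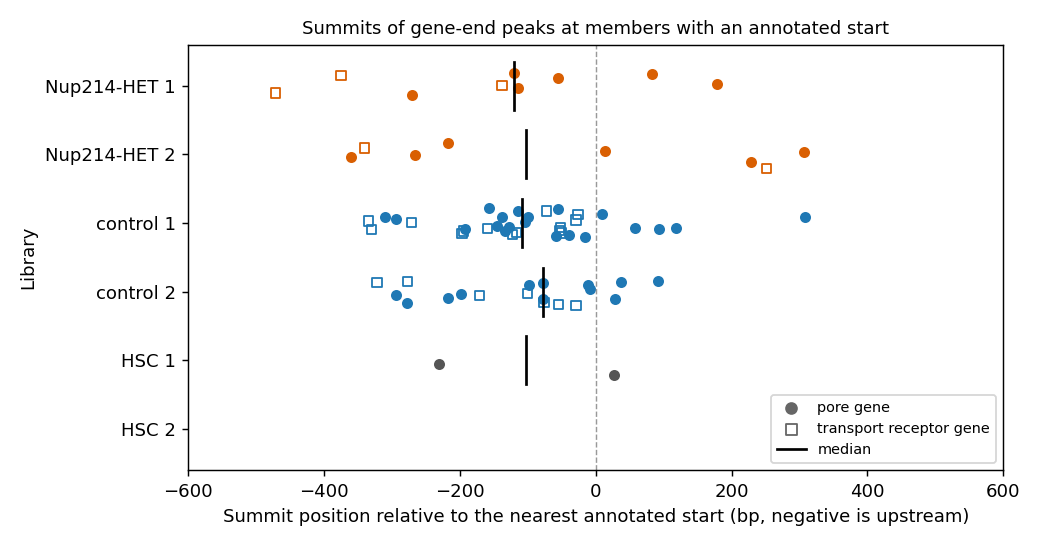
Position of the peak summit relative to the nearest annotated start, in bp with negative values upstream, for each member with a gene-end peak and an annotated start. Rows are libraries, filled circles are pore genes, open squares are receptor genes, and black bars are medians, which lie between −120 and −77 bp.

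Summits lay upstream of the start at 7 of 9 members in Nup214-HET LSC library 1 and 4 of 8 in library 2. In control LSCs they did at 29 of 34 and 16 of 19, and in HSC library 1 at 1 of 2. The median position was −120 and −102.5 bp in Nup214-HET LSCs (n = 9 and 8), −109 and −77 bp in control LSCs (n = 34 and 19), and −102 bp in HSC library 1 (n = 2). Within 250 bp of the start lay 66.7% and 37.5% of the members' summits in Nup214-HET LSCs, against 82.4% and 78.9% in control LSCs. For all genes the shares were 60.2% and 58.5% in Nup214-HET LSCs, against 73.7% and 73.6% in control LSCs. Peak widths also differed between these groups, and their part in the shares was not tested.

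Several of the 9 members without a gene-end peak carried one at an annotated start inside the outermost ends. Nup210, a membrane nucleoporin whose start lies 1496 bp inside, had peaks there in both control LSC libraries with folds of 16.9 and 8.22. Ipo5, with a start 14354 bp inside, had folds of 10.3 and 6.46, and Ipo8, with a start 1464 bp inside, had a fold of 10.0 in control LSC library 1. None of these 3 starts had a peak in Nup214-HET LSCs or HSCs. Counted at annotated starts, 9 and 8 of 39 members were marked in Nup214-HET LSCs, 37 and 21 in control LSCs, with 2 and 0 in HSCs. The percentages over all genes with a start were 12.2 and 10 in Nup214-HET LSCs, 45.4 and 23.2 in control LSCs, and 0.995 and 0.0629 in the HSC libraries.

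In control LSC library 1 the 2 members without a start peak were Nup160 and Pom121. Nup160, an outer ring subunit, had a peak 2109 bp downstream of its start there, with a fold of 11.3, and one 2045 bp downstream in Nup214-HET LSC library 2, with a fold of 4.85. Pom121, a membrane nucleoporin, had no peak in its span or at its ends in any library. Xpo7, with no start in the table used, had a peak inside its span in Nup214-HET LSC library 2 (fold 5.24) and in both control LSC libraries (folds 12.98 and 8.47).

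Peaks in the span showed the same order of groups. They were found at 10 and 11 members in Nup214-HET LSCs, 44 and 23 in control LSCs, with 1 and 0 in HSCs. The shares of all genes were 15.2% and 12.8% in Nup214-HET LSCs, 52.2% and 26.5% in control LSCs, and 2.03% and 1.08% in the HSC libraries. The difference between Nup214-HET and control LSCs was −23 and that between control LSCs and HSCs 33, each with the groups apart and an exact permutation p of 0.33. With the summit itself required inside the span the differences were −12 and 19.5, and with lists cut to equal length −0.5 (exact permutation p = 1) and 2. For the 6 members no longer than the median gene they were −2 and 2.5, each with an exact permutation p of 1. The members are long genes, with a median of 47.3 kb against 17.2 kb for all genes. The part of gene length in the span counts was not tested.

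Some of the peaks could belong to a neighbouring gene as well. Of the 40 members with a gene-end peak in any library, 6 had another gene at it, among them both members called in HSC library 1. For all of these but Ipo4, the other gene's annotated start lay near the member's own. The starts of Nup98 and Pgap2 lie 7 bp apart on opposite strands, and those of Tpr and Odr4 217 bp apart. Nup188 shared its peaks with Dolk, Xpo5 with Polh and Nup37 with Parpbp. The Ipo4 peak lay near an end of Tm9sf1, but the starts of these genes are 7687 bp apart on the same strand. It was therefore not at the annotated Tm9sf1 start. Another gene's end lay within 1 kb of 9 of the 24 members in the control LSC set (37.5%), against 45.0% of all genes in that set.

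The promoters of the members were rich in GC and CpG. The RefSeq windows from 250 bases before to 50 after a start numbered 46 for 39 members, with a median GC content of 63.8% and a ratio of observed to expected CpG of 0.933. All 21263 windows of protein-coding genes had medians of 56.3% and 0.567, and those of the control LSC set 62.0% and 0.804. Member windows inside and outside the control LSC set had GC medians of 65.8% and 63.2%. Base composition thus moved with having a peak across the genome, and its part in the members' shares was not tested.

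Each motif was searched on both strands of these windows, and a match is a description of the letters only. The GC box GGGCGG was found in 60.9% of member windows, against 46.2% of all windows and 70.0% of those of the control LSC set. The ETS motif CCGGAAG was found in 21.7%, against 11.6% of all and 20.0% of the control LSC set, with 30.8% in pore and 10.0% in receptor windows. The NF-Y box CCAAT was in 41.3%, 38.2% and 45.7%, and the E-box CACGTG in 17.4%, 7.84% and 10.8%. The palindromic NRF1 motif was found in the windows of Nup107, Nup50 and Xpo5, or 6.52%, against 1.33% of all and 2.198% of the control LSC set. All 3 genes belonged to the control LSC set. The CRE TGACGTCA was in 4.35%, at Nup133 and Nupl2, against 2.23% of all and 4.19% of the control LSC set. The TATA motif TATAAA was in 10.9%, against 12.6% and 5.90%. Matches to different motifs were counted apart, also where they shared bases.

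Other genes of nuclear transport were counted in the same way. Of 13 genes of the Ran cycle and related transport factors, 1 was in the Nup214-HET set (Ranbp1, a Ran-binding co-activator of GTP hydrolysis) and 6 in the control LSC set. The 6 were Ran, the GTPase that gives transport its direction, its activating protein gene Rangap1, Ranbp1, Ranbp3, Nutf2, which imports Ran, and Senp2. Both HSC libraries had 0 of the 13. In the Nup214-HET set this is 7.69%, near the 6.76% of all genes, and in the control LSC set 46.2%, beside 21.3% of all genes. These counts were not tested.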

How the data were processed

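CUT&Tag with a NUP214 antibody was run on sorted mouse bone marrow cells, with 2 libraries in each of 3 groups taken from the sample titles. Per the submitters' processing notes, FastQC 0.11.5, Bowtie2 2.2.9, MACS2 and ChIPseeker were used with mm10. For peak caller settings, a control sample and duplicates, nothing is given in the sources used here. The authors deposited 1 peak list per library, so peaks were called in each library apart, per the file layout. The deposited columns used are the fold (a linear ratio of summit to local background), the −log10 p and −log10 q, beside the caller's score, which was not used for any result. The lists end at a q of 0.05.

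Python 3.11.15, pandas 2.3.3, NumPy 2.4.6, SciPy 1.17.1 and matplotlib 3.10.9 were used here. Gene ends came from RefSeq (GRCm38.p6), and starts, strands and promoters from a RefSeq promoter table of the same build. A peak counted with at least 1 bp in the window. Summit pileups were recovered for 100% of peaks, within a relative tolerance of 0.0001, from MACS2's usual form of the fold and a Poisson p, which no label states. Implied depth is the lowest background of a list over its smallest peak width. It rests on these assumptions, and read totals were not used. The steps were tested on simulated data. Groups were compared by exact permutation over libraries.

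The members and lists were chosen with earlier results of these data known. Values per peak were given for members called in all 4 LSC libraries, members called in HSCs, and the 5 control LSC members without a Nup214-HET peak that had the highest mean fold percentile. The comparison of summit pileups was added after the data were seen. Members on the fringe of this rule (Nup210, Ipo5, Ipo8, Nup160, Xpo7) were named after their values were seen. Alternatives covered the window, the start, q, list length, regions common to all libraries, a limit of 50 times the background, the number of libraries required, and each library left out.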

Additional observations from a re-analysis of the deposited data

How the results depend on the processing

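Of 197 alternative values, 31 moved and 3 reversed. The other 163 counted as the same. For differences in the number of members this means the same sign at any size. For counts, medians and percentage differences it means a value near the main one. No threshold on p was used, and the exact permutation test over 2 against 2 libraries cannot pass 0.05. With lists cut to the shortest (634 peaks), the Nup214-HET minus control LSC difference reversed to 0.5 members, those of control and Nup214-HET LSCs over HSCs were 2.5 and 3, and the difference between pore and receptor genes in the Nup214-HET set reversed to −0.84 points, as it also did at 50 times the background. The same cut left 1 member in the control LSC set, 2 in the Nup214-HET set, 1 in both and 0 in the control LSC set without a Nup214-HET peak, since fewer peaks remain. It makes all lists equally long, so it cannot show whether the groups differ in their numbers of members. It gave median fold percentiles of 41.0 (Nup214-HET library 1), 69.6 and 13.7 (control LSC libraries 1 and 2). At 50 times the background the Nup214-HET set and both sets held 2, with medians of 61.5, 65.8 and 63.6 in the same libraries. A stricter q (−log10 q of 2.64) gave medians of 49.4 (Nup214-HET library 2), 73.2 and 65.1 (control LSC libraries 1 and 2). The median in control LSC library 1 was 79.9 with a 2 kb window, with starts only, or with ends and starts together, and 80.4 in library 2 with starts only. Why the medians moved was not tested.

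Requiring a single library gave 40 members for control LSCs, 12 for Nup214-HET LSCs, 2 for HSCs, 28 for control LSCs without a Nup214-HET peak and 12 in both LSC groups. Leaving out 1 library at a time gave control LSC sets of 24 to 40, Nup214-HET sets of 9 to 10, HSC sets of 0 to 2, 14 to 28 genes without a Nup214-HET peak, and 7 to 9 in both, with the highest control counts when control LSC library 2 was left out. The difference between Nup214-HET and control LSCs then ran between −30.5 and −14.5. The median log2 pileup ratio was −1.98 over the background in place of −0.81, and between −0.74 and −0.59 with a library left out.

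Paired by the replicate number as a block, the differences were −22.5, 31 and 8.5 at gene ends and −23 and 33 in the span, with an exact sign-flip p of 0.5. The deviations of same-numbered libraries were nearly uncorrelated (correlations of 0.00201, −0.0428 and 0.00122). These values cannot decide whether the number marks a block, because list lengths differed within groups and few genes were called in HSCs. Peak lists give no reads for genes without a call, so a missing peak is not a measured absence of signal.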

Other observations

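Genes of the nuclear lamina and envelope, which border the pore, were listed beside the transport genes. Of 15 such genes, 8 and 6 were marked at a gene end in Nup214-HET LSC libraries 1 and 2, 14 and 8 in control LSC libraries 1 and 2, and 0 in both HSC libraries. The Nup214-HET set held 6: Lmnb2, a B-type lamin, Emd, which encodes emerin, Sun2, which links the envelope to the cytoskeleton, Tmpo, Banf1 and Tor1aip1. The control LSC set held 8: Lmna, Lmnb1, Lmnb2, Lbr, the lamin B receptor, Emd, Sun2, Tmpo and Tor1aip1. Banf1, which bridges DNA and the envelope, had gene-end peaks in both Nup214-HET libraries and in control LSC library 1 but not in control LSC library 2. The latter list had the lowest implied depth, and whether depth had a part was not tested. Over all protein-coding genes 6.76% were in the Nup214-HET set and 21.3% in the control LSC set. The list was drawn up with earlier results known, and its counts were not tested.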
